A study of Mus musculus with 50 samples.

Results

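The genes described here build or serve the moving part of the sperm tail and of cilia. They were chosen by name from the array's gene symbols: Akap3, Akap4, and symbols that start with Dnah, Dnai, Dnal, Tekt, Ift, Bbs, Odf or Spag followed by a digit or a lettered number. This gave 59 spots of 43 genes, out of 20355 spots on the array, of which 14030 carry a single gene name. The choice went by symbol alone, but it was made with earlier results of these data known. Each spot is named here by its number on the array, and spots of a gene share that gene as their target.

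The axoneme is the shaft of microtubule doublets that runs through a flagellum or motile cilium. Dynein arms on the doublets provide the force, tektins run along the doublets, and the central pair of microtubules with its projections controls the beat. Intraflagellar transport (IFT) carries building material along the axoneme in trains of IFT-A and IFT-B subunits, and the BBSome, made of Bbs proteins, links membrane cargo to these trains. In mammalian sperm the axoneme is wrapped in outer dense fibres, and over much of the tail in a fibrous sheath whose main components are the kinase anchors Akap3 and Akap4. In the testis, many of these genes are active in spermatids. In the spinal cord, the ependymal cells that line the central canal carry motile cilia.

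Wobbler (wr/wr) mice are homozygous for a recessive mutation of Vps54, a tether of vesicles at the Golgi, and are known for motor neuron loss and for sperm with a malformed acrosome. The testes of 10 individual wr/wr mice were each hybridised on 4 arrays against a pool of wild-type (wt) testis RNA, and 3 wr/wr spinal cord RNAs on 10 arrays against a pool of wild-type cord RNA. Cord pool1 and pool2 each hold the RNA of 4 mutant mice and the remaining cord RNA is that of mouse 5995, all of them animals whose testes were also measured. The sample labels name 10 wild-type mice for the reference and the labelling protocol gives 6 control animals, a difference that was not settled, and the labels give no age. Every RNA was labelled in both dyes on equal numbers of arrays. Values are log2 ratios, taken as wr/wr over wild type, centred on each array's median, and averaged first within and then over the dye orientations. This direction is likely, since the labels list the mutant as the first channel, but no source used here states it, and if the ratios run the other way every sign turns. Because a single wild-type pool stands for each tissue, the tests do not include how wild-type mice vary. The array carried 0 spots named Vps54, so the genotype was not checked by its gene, and ratios carry no level, so neither tissue was checked by the level of its markers.

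In the testis, axoneme, tail and transport spots were called about as often as all spots of the array. The called ratios were at most 0.45 in size. Of the 59 spots, 5 were called higher (8.47%, against 7.28% of all 20218 spots tested) and 2 lower (3.39%, against 5.06%), with a Benjamini-Hochberg adjusted p under 0.05 in limma. The called share, 7 of 59 or 11.9%, was near the 12.3% called among all spots. At an unadjusted p under 0.05 in limma there were 24 of the 59, a larger share than the 30.3% of all spots. These shares were not compared by a test. The 30.3% is also the share to set beside the unadjusted counts of single families and lists. The ratios of 51 of the 59 spots were under 0.2 in size. Their median was 0.03, against -0.01 over all spots, with 34 spots above 0 and 25 below. The spread between mice was of the same order, with a median SD of 0.149 (0.173 over all spots). In bulk tissue, fewer cells of a type and less RNA per cell cannot be told apart.

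**Figure D1:**
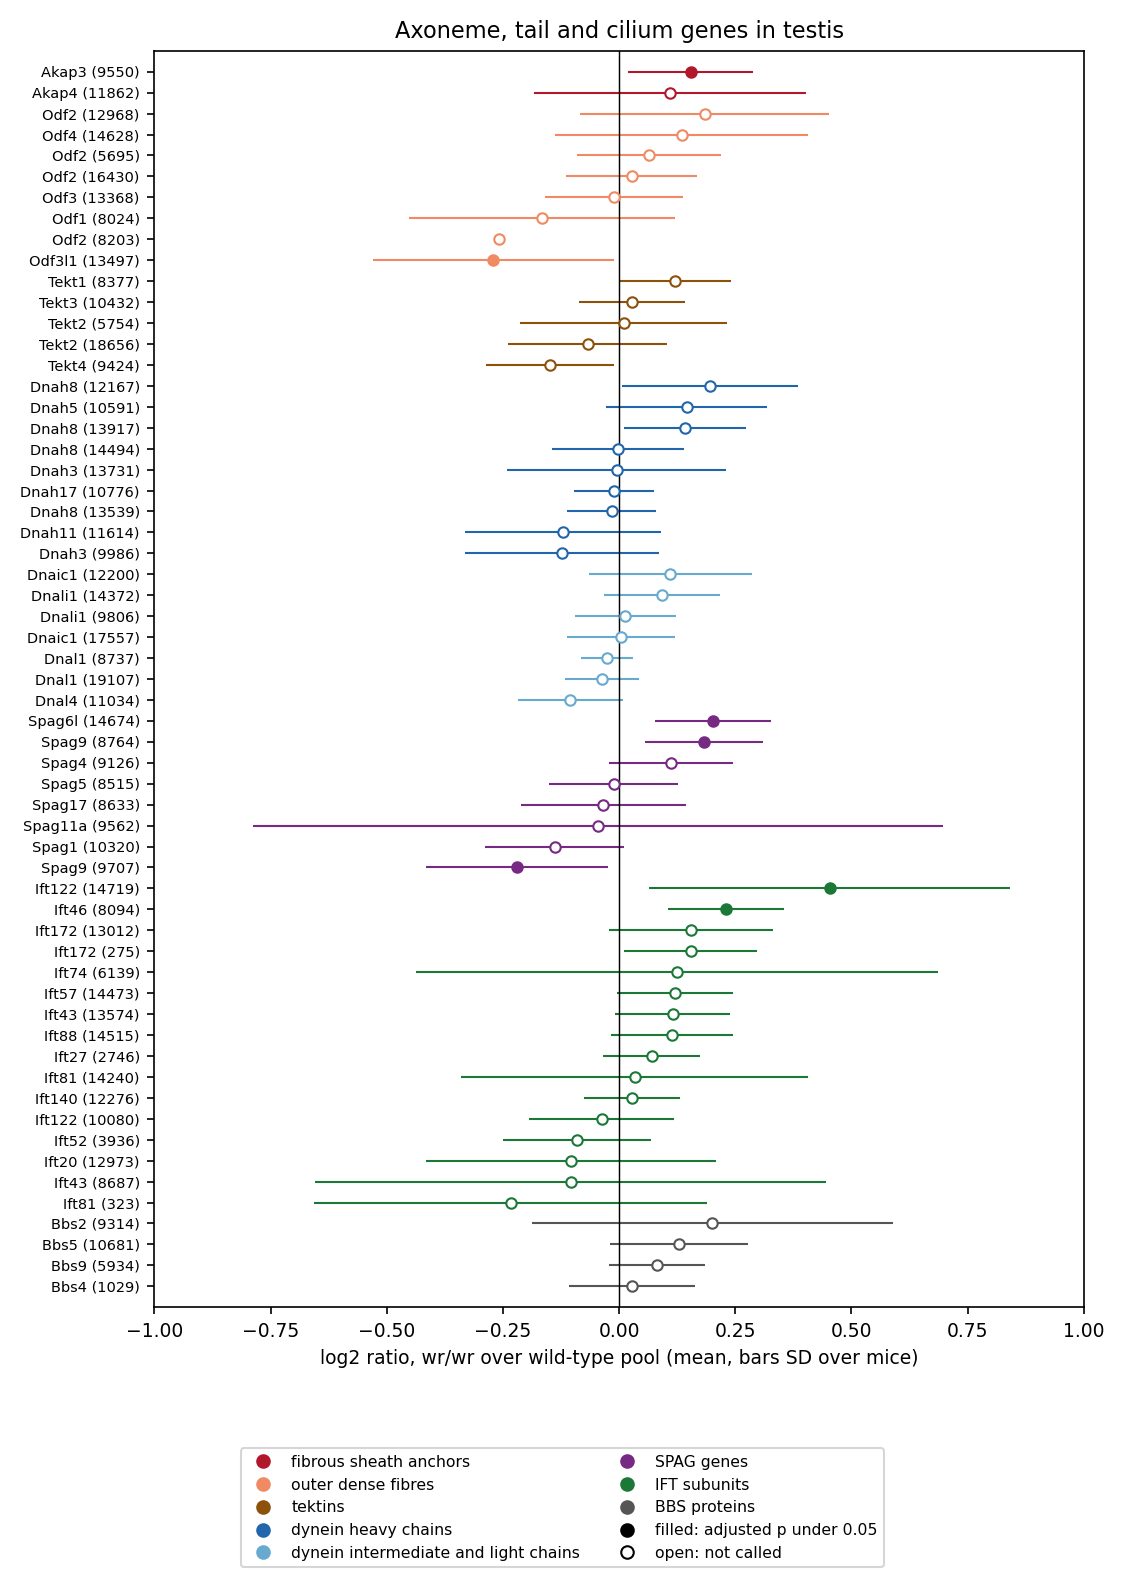
Testis log2 ratio of each of the 59 spots, by family, with the spot number in brackets; points are means over 9 or 10 mice, bars are SD, filled points have an adjusted p under 0.05. No bar is drawn for Odf2 spot 8203, whose SD is 1.94; most points lie within 0.2 of 0, and the 7 filled points run from -0.27 (Odf3l1) to 0.45 (Ift122).

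The fibrous sheath anchors were both on the positive side. Akap3, a scaffold that holds protein kinase A in the sheath, had ratios from -0.05 in mouse 5995 to 0.44 in mouse 6065, with a median of 0.15. It was above 0 in 9 of 10 mice, and the mean of 0.15 ± 0.13 (SD, n = 10) was called higher by limma (adjusted p = 0.0446). The call was kept on leaving out mouse 5905 or 5995 and lost on leaving out any of the other 8 (adjusted p up to 0.0896, without mouse 5907). The ratio of Akap3 was 0.317 on arrays with the mutant in Cy5 and -0.0092 on those with the mutant in Cy3, and the Cy3 arrays alone gave an adjusted p of 0.914. Akap4, the most abundant sheath protein, ranged more widely, from -0.46 to 0.62 with a mean of 0.11 ± 0.29, and was not called.

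Among the outer dense fibres, 1 of 8 spots was called (12.3% of all spots were), and the genes did not move together. Odf3l1, a relative of the tail protein Odf3, had ratios from -0.82 in mouse 5995 through a median of -0.23 to 0.10 in mouse 5905. It was below 0 in 9 of 10 mice, and fell by 0.27 ± 0.26 (adjusted p = 0.0434), with both dye orientations negative (-0.22 in Cy5, -0.32 in Cy3). This call too was lost on leaving out any of 8 mice and kept without 5905 or 5997; without mouse 5995 the mean was -0.21 (adjusted p = 0.0568). Odf1, a major protein of the fibres, was at -0.17 ± 0.29, Odf3 at -0.01 ± 0.15 and Odf4 at 0.13 ± 0.27, none of them called. Odf2, which is also a protein of centriole appendages, had 4 spots at 0.18, 0.06, 0.03 and -0.26, the last with an SD of 1.94. On that spot 1 array value of mouse 5995 lay at the floor, and the mice also spread widely on the Cy5 arrays (SD 1.37).

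The 5 tektin spots ranged from -0.15 to 0.12, and 0 were called by limma (2 with an unadjusted p under 0.05, where 30.3% of all spots had one). Tekt4, a tektin of the sperm flagellum, had the lowest ratios, from -0.43 in mouse 5995 through a median of -0.15 to 0.04 in mouse 5905. It was below 0 in 8 of 10 mice, and its mean of -0.15 ± 0.14 just missed the threshold (adjusted p = 0.0531). Without mouse 5905 it was called (adjusted p = 0.0377). On leaving out any of the other 9 mice it was not (adjusted p up to 0.108, without mouse 6069). Tekt1 was at 0.12 ± 0.12 (adjusted p = 0.0738), and Tekt3 and both Tekt2 spots lay within 0.07 of 0.

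The dynein chains had mean ratios from -0.12 to 0.20, and some of these means joined dye orientations of opposite sign. Of 16 spots, 9 for heavy chains and 7 for intermediate and light chains, 0 were called by limma, and 5 had an unadjusted p under 0.05, near the 30.3% of all spots. Dnah8, a heavy chain of the sperm outer arm, had 4 spots of which a pair lay near the threshold, spot 12167 at 0.20 ± 0.19 (adjusted p = 0.0510) and spot 13917 at 0.14 ± 0.13 (adjusted p = 0.0548). Its other spots were at -0.02 and -0.002, so that the spots of this gene did not give a common value. Dnah5, the outer arm heavy chain of motile cilia, was at 0.15 ± 0.17, Dnah17 at -0.01 ± 0.09, and Dnah11 and Dnah3 spot 9986 both at -0.12 ± 0.21. Of the smaller chains, the light chain Dnal4 was the lowest at -0.11 ± 0.11 (adjusted p = 0.0960), and the intermediate chain Dnaic1 the highest at 0.11 ± 0.18 for spot 12200, with its other spot at 0.00 ± 0.12. Both Dnal1 spots, for a light chain of the outer arm, were within 0.04 of 0 with SDs of 0.0568 and 0.0793, the smallest among the 59 spots. With the mutant in Cy5 and then in Cy3, Dnah3 spot 9986 was at -0.476 and 0.231, and Dnah11 at -0.342 and 0.101. Dnah17 was at 0.158 and -0.181, and Dnal4 at 0.0762 and -0.286. Both orientations were above 0 for Dnah8 spots 12167 (0.254 and 0.1365) and 13917 (0.1515 and 0.133) and for Dnaic1 spot 12200 (0.142 and 0.079). Dnah5 was at 0.282 in Cy5 and only 0.00985 in Cy3.

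IFT subunits with an Ift symbol lay mostly on the positive side. Subunits under other names are counted further on, in a list with calls in both directions. Their 16 spots had a median of 0.09, with 11 above 0 (46.6% of all spots were), and the median over these spots was above 0 in each of the 10 mice (0.01 to 0.19). Of the 16 spots, 2 were called higher and 0 lower, against 7.28% and 5.06% of all spots. Ift46, an IFT-B subunit, had ratios from 0.07 in mouse 5997 through a median of 0.23 to 0.41 in mouse 5907. It was above 0 in 10 of 10 mice with a mean of 0.23 ± 0.13 (1.17-fold, adjusted p = 0.0147), and it remained called on leaving out any mouse. By dye, the mean was 0.316 with the mutant in Cy5 and 0.144 with it in Cy3, with 7 of 10 mice above 0 and an adjusted p of 0.186 from the Cy3 arrays alone.

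Ift122, an IFT-A subunit, had the highest mean ratio of all 59 spots and a wide range. Its spot 14719 was above 0 in all 9 mice with a value, from 0.02 in mouse 6069 through a median of 0.28 to 1.22 in mouse 6493. The mean of 0.45 ± 0.39 was called (adjusted p = 0.0364), but not after leaving out any of 7 mice (adjusted p up to 0.0726, without mouse 5995). Mouse 5907 is among these 7 but has no value on this spot. Without it the mean stayed at 0.45 (limma adjusted p = 0.0507), while the calls over all spots fell from 2494 to 1241. The further spot of this gene, 10080, ran from -0.32 to 0.19 with a mean of -0.04 ± 0.16 (adjusted p = 0.639), so that the spots of Ift122 differed by 0.49. Which of them reports the transcript was not tested.

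Of the other IFT-B subunits, Ift172, Ift57, Ift88 and Ift27 lay between 0.07 and 0.16, and the rest lay lower or spread widely. Ift172 was at 0.15 on both its spots (adjusted p = 0.0520 for spot 275 and 0.0861 for spot 13012), and Ift57, Ift88 and Ift27 were at 0.12, 0.11 and 0.07. Of the IFT-A subunits, Ift140 was at 0.03 and Ift43 spot 13574 at 0.12. Ift52 (-0.09) and Ift20 (-0.10) were on the other side of 0, and neither was called. Ift74, Ift43 spot 8687 and both Ift81 spots spread by 0.374 to 0.562 (SD) around means of -0.23 to 0.12, too widely to place them. The 4 BBSome genes were all above 0, with Bbs2 at 0.20 ± 0.39, Bbs5 at 0.13 ± 0.15, Bbs9 at 0.08 ± 0.10 and Bbs4 at 0.03 ± 0.14. None of the 4 was called by limma, and 2 had an unadjusted p under 0.05 (30.3% of all spots).

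**Figure D2:**
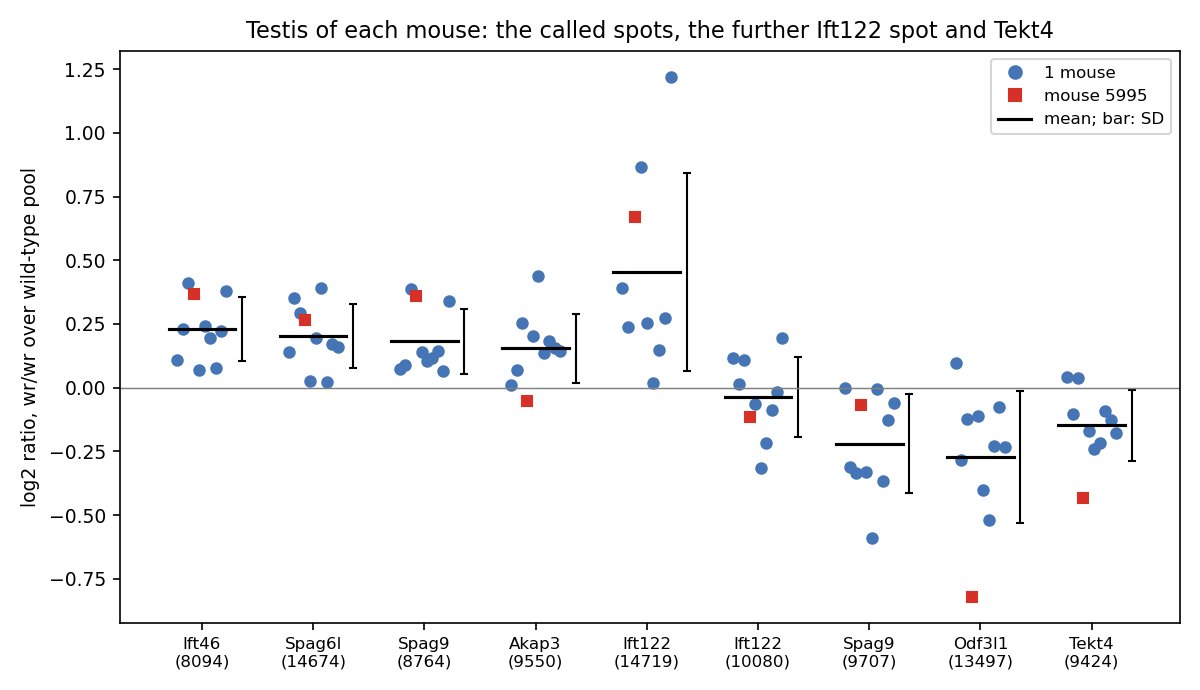
Testis log2 ratio in each of the 10 mice for the 7 called spots, the further spot of Ift122, and Tekt4; lines are means, bars SD, and squares mark mouse 5995. Ift46, Spag6l and Spag9 spot 8764 are above 0 in 10 of 10 mice, Ift122 spot 14719 is spread from 0.02 to 1.22, and mouse 5995 is the lowest for Akap3, Odf3l1 and Tekt4.

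The Spag genes (sperm-associated antigens) are a group by name and not by function. Spag6l, a protein of the central pair without which sperm do not swim normally, had ratios from 0.02 in mouse 6163 through a median of 0.18 to 0.39 in mouse 6069. It was above 0 in 10 of 10 mice, and its mean of 0.20 ± 0.13 (1.15-fold) was called higher (adjusted p = 0.0182) and remained so on leaving out any mouse. The Cy5 mean was 0.328 and the Cy3 mean 0.0770, and the Cy3 arrays alone gave an adjusted p of 0.489. The mouse has a close copy of this gene, Spag6, and whether the spot tells them apart was not tested. Spag17, another central pair protein, was at -0.03 ± 0.18, and Spag1, which helps to assemble dynein arms, at -0.14 ± 0.15 (adjusted p = 0.0801).

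Spag9, a scaffold of the JNK kinase pathway with no known place in the axoneme, was called in both directions. Spot 8764 ran from 0.06 in mouse 6335 through a median of 0.13 to 0.39 in mouse 5907, with a mean of 0.18 ± 0.13 and 10 of 10 mice above 0 (adjusted p = 0.0241, and 0.0599 without mouse 6493). Spot 9707 ran from -0.59 in mouse 6065 through a median of -0.22 to -0.001 in mouse 5905, with a mean of -0.22 ± 0.20 and 10 of 10 mice below 0 (adjusted p = 0.0386). The lower call was kept on leaving out mouse 5905 and lost on leaving out any of the other 9. With the spots averaged, Spag9 was at -0.02, and no direction is given for the gene. Spag4, a nuclear envelope protein of spermatids, was at 0.11 ± 0.13, Spag5, a protein of the mitotic spindle, at -0.01 ± 0.14, and Spag11a, a defensin-like gene of the epididymis, at -0.05 ± 0.74 (n = 9). In all, 12 of the 43 genes had several spots, and in 7 of them the spots had opposite signs.

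The promoters of the genes were read from RefSeq (GRCm38.p6) to show which known regulatory letters stand before them. A pair of motifs was searched on both strands of the 250 bases before each start: GTTGCC, part of the X-box that RFX factors bind in cilium genes, and TGACGT, part of the cyclic AMP response element that CREM binds in spermatids. Of the 43 genes, 37 had an entry, with 46 promoters. GTTGCC stood in 9 of the 46 (19.6%, against 10.4% of all 32851 promoters in the table) and TGACGT in 7 (15.2%, against 6.47%). Promoters of a gene can overlap, so these counts are not independent. The promoter of Spag6l holds TGACGT on both strands in overlap, starting 9 and 7 bases before the start, that of Odf3l1 holds the other strand of GTTGCC 103 bases before, and that of Ift46 holds neither. The promoters of the other called genes with an entry, Akap3 and Spag9, hold neither as well. The promoters are printed 5′ to 3′ on the gene's strand, with motif letters in capitals, for Spag6l at chr16:16829364-16829613 (minus strand), Odf3l1 at chr9:56851964-56852213 (minus strand) and Ift46 at chr9:44772759-44773008 (plus strand).
Spag6l: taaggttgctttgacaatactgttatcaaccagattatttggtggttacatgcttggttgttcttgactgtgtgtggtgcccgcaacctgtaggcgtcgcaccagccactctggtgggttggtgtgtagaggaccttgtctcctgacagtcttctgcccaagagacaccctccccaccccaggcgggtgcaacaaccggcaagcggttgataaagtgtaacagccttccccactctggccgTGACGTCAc
Odf3l1: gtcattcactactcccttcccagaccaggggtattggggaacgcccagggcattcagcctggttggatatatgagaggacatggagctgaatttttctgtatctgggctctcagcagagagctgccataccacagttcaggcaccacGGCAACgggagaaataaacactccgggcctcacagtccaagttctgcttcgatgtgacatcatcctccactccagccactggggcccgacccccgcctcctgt
Ift46: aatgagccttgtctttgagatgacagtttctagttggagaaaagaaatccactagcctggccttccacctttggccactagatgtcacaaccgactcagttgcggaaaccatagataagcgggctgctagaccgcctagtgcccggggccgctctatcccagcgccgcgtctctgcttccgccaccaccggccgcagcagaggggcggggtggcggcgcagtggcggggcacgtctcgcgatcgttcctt
Odf3l1 has a further promoter entry, not printed, with GTTGCC 123 bases before its start. A match describes letters in this window and shows no binding. Among genes not called, Ift57 and Tekt1 hold both motifs within a promoter (Ift57 between 162 and 60 bases before its start, Tekt1 between 148 and 15), and both were at 0.12 ± 0.12 (adjusted p = 0.0797 and 0.0738).

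Genes of the same structures under other names were counted beside the 59 spots, and where a gene had further spots these often lay elsewhere. The shares to set beside their calls are the 7.28% of all spots called higher and the 5.06% called lower. Of 29 spots for dynein arm docking and assembly, 4 were called higher and 0 lower. The assembly factor Zmynd10 was at 0.13 ± 0.11 and the shared dynein light chain Dynll1 at 0.21 ± 0.16. Tcte3 was at 0.23 ± 0.22 on the called spot 12937 and at 0.29 ± 0.32 on spot 9053. Dynll2, another shared light chain, was called on spot 11378 (0.32 ± 0.24), while its 4 further spots lay at -0.17, -0.02, -0.01 and 0.06 and were not called. Of 31 spots for radial spokes, nexin links and the central apparatus, 2 were called higher, Meig1 (0.27 ± 0.23) and Rsph9 (0.13 ± 0.08), and 2 lower. The lower calls were Hydin spot 9623 (-0.21 ± 0.19), for a central pair protein, and Rsph1 spot 7759 (-0.16 ± 0.13), for a radial spoke head protein. The 3 further Hydin spots were at 0.05, 0.15 and 0.04 and the further Rsph1 spot at 0.08, all above 0 and not called, so neither gene is given a direction. Of 23 spots for subunits and partners of IFT and the BBSome under other names, 3 were called higher, Arl3 (0.23 ± 0.19), Traf3ip1 (0.17 ± 0.12) and Wdpcp (0.14 ± 0.10), and 2 lower. The lower ones were for IFT-A subunits, Ttc21b (-0.23 ± 0.19) and Wdr19 spot 12970 (-0.16 ± 0.14), and Wdr19 spot 13328 was on the other side of 0 (0.12 ± 0.16, not called). Of 30 spots of other tail genes, 2 were higher, Gpx4 (0.20 ± 0.15), the selenoprotein of the sperm midpiece, and Meig1 again, and 0 lower. The medians of these lists ran from 0.01 to 0.05, beside 0.03 for the 59 spots and -0.01 for all spots; no test compared the lists. Of 12 spots of ciliary transcription factors 0 were called by limma and 7 had an unadjusted p under 0.05 (30.3% of all spots), with a median of -0.10.

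Marker lists of the cells in the testis moved beside these values. Among all spots, 7.28% were called higher and 5.06% lower. Of 20 spots of elongating spermatids, the cells that build the tail, 2 were called higher (Hils1 0.39 ± 0.26, Hspa1l 0.26 ± 0.20) and 0 lower. The list as a whole had 9 spots above 0 and 11 below, a median of -0.01, and mouse medians from -0.48 to 0.25. Of 15 round spermatid spots 2 were called lower (Pcsk4 -0.24 ± 0.15, Acr -0.14 ± 0.11) and 0 higher. Most of that list lay the other way, with 10 spots above 0, 5 below and a median of 0.06. Of 9 spermatocyte spots 2 were higher and 1 lower. Of 5 spermatogonial spots limma called 0, with 1 at an unadjusted p under 0.05. Sertoli cell markers were called higher on 6 of 10 spots (mouse medians 0.0151 to 0.369). Leydig cell markers were called lower on 4 of 12 spots (mouse medians -0.24 to -0.02) and macrophage markers on 4 of 9 (-0.312 to 0.0150). The part of cell composition in the ratios of the tail and cilium genes was not tested.

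Mouse 5995 stood apart in the genes of the fibrous sheath, outer dense fibres and tektins. Over the 15 spots of Akap, Odf and Tekt genes its median was -0.31, while those of the other 9 mice ran from -0.09 to 0.18. It was the lowest of the mice on 11 of these 15 spots and on 19 of all 59 (32.2%, against 13.6% over all spots of the array). The low values were present in both dye orientations, where the medians of this mouse were -0.292 (mutant in Cy5) and -0.353 (mutant in Cy3). In the IFT spots the same mouse had a median of 0.0079, just under the 0.0228 to 0.193 of the others, and in the dynein spots of -0.05, inside their range of -0.06 to 0.06. The elongating spermatid markers, which hold none of the 59 spots, were at -0.48 in this mouse and between -0.06 and 0.25 in the rest. Without mouse 5995 the median of the 15 spots moved from 0.03 to 0.05 and that of the elongating markers from -0.01 to 0.04. At the other end, mouse 5907 was the highest on 16 of the 59 spots (27.1%, against 14.5% of all spots) and mouse 6065 on 11 (18.6%, against 20.3%).

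**Figure D3:**
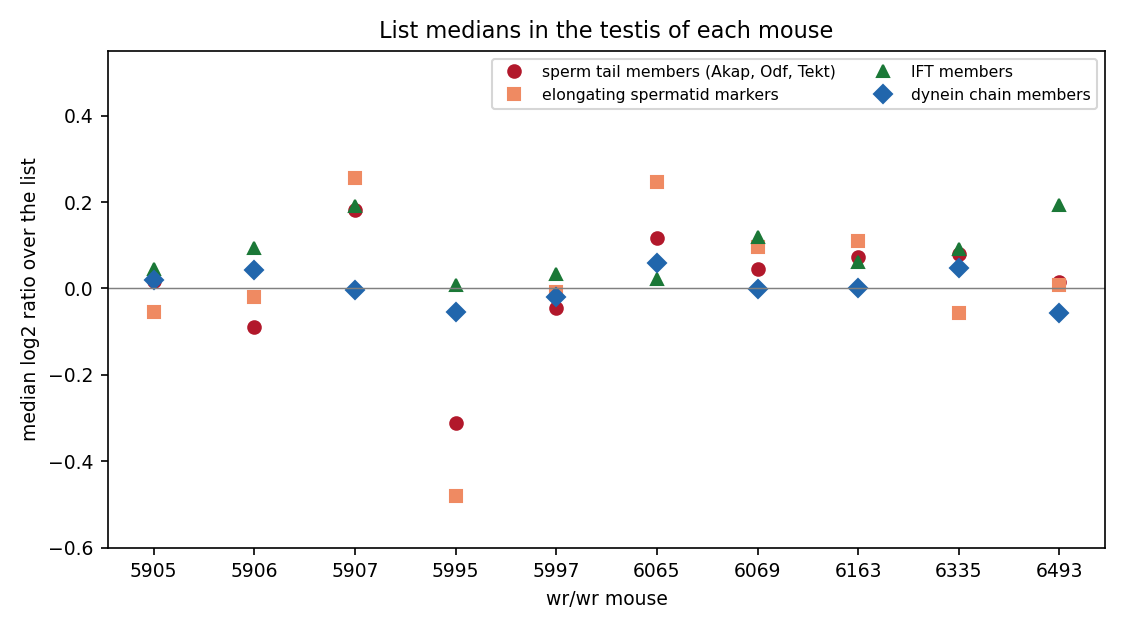
Median log2 ratio per wr/wr mouse in testis over the 15 Akap, Odf and Tekt spots, the 20 spots of elongating spermatid markers, the 16 IFT spots and the 16 dynein chain spots. Mouse 5995 lies at -0.31 for the tail spots and -0.48 for the elongating markers, below every other mouse, while its IFT and dynein medians lie near 0.

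The ratios also differed with the labelling. In testis, 26 of 59 spots (44.1%, against 47.3% of all) changed sign between the dye orientations, and the medians of the 59 were 0.09 in Cy5 and 0.03 in Cy3. The dye orientations differed by 0.152 in the median over the 59 spots (0.155 over all spots). Of the 7 called spots, Akap3 was the only one whose dye means had opposite signs. Across spots, the Cy5 and Cy3 means of an RNA correlated at a Spearman rho from -0.309 (mouse 6065) to 0.361 in testis, below 0 in 3 of 10 mice, and from -0.228 to -0.0205 in the 3 cord RNAs; spots are not independent, and no p is given. In cord, 26 of 41 spots had opposite signs (63.4%, against 54.3% of all) and the median gap was 0.53 (0.42 over all spots).

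**Figure D4:**
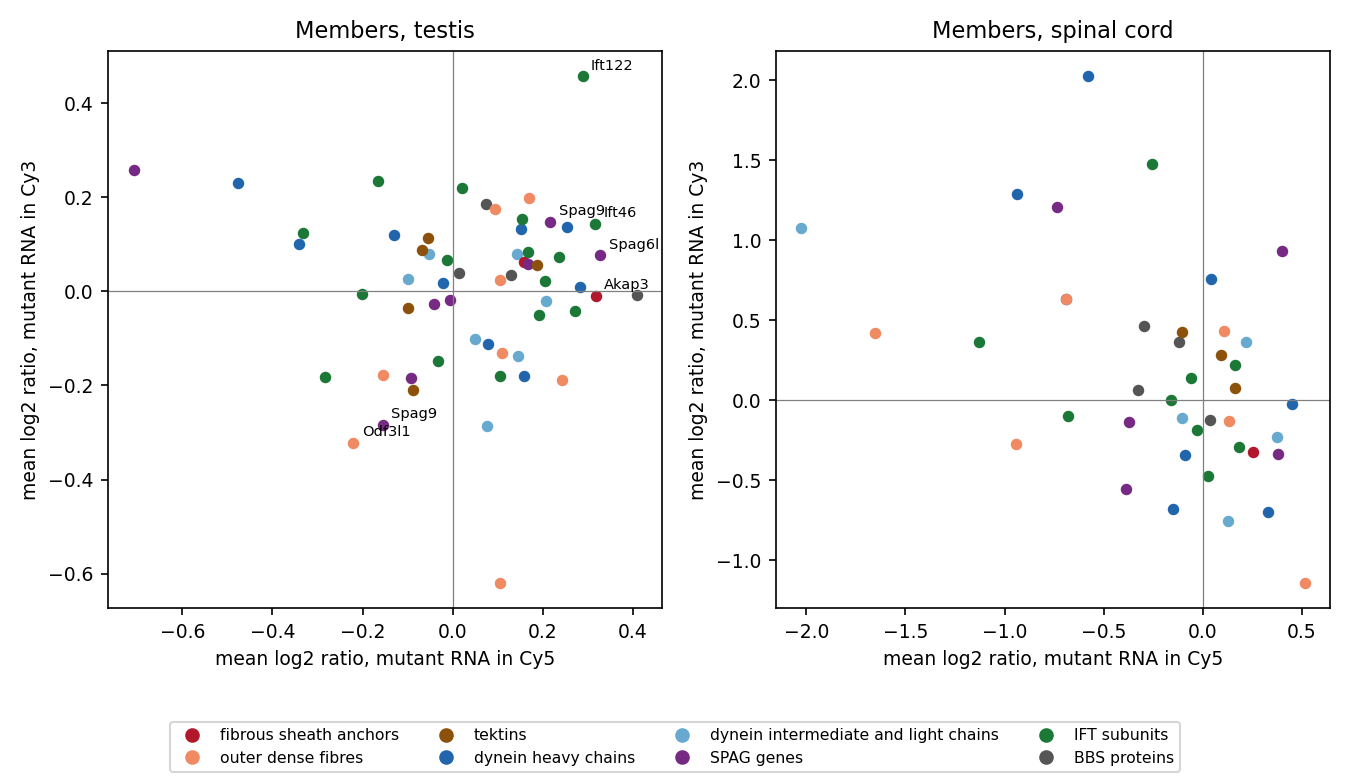
Mean log2 ratio of each spot with the mutant RNA in Cy5 (horizontal) and in Cy3 (vertical), for 59 spots in testis and 41 in spinal cord, coloured by family; the called testis spots are labelled. Points at the upper left and lower right have opposite signs in the 2 orientations, 26 in testis and 26 in cord.

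In the spinal cord, no axoneme or cilium gene could be placed above or below the wild type. Of 41 spots of 34 genes with values in all 3 RNAs, 0 were called by limma, as were 0% of all 17055 spots tested (smallest adjusted p = 0.542). At an unadjusted p under 0.05 there were 2 of 41 (4.88%, against 8.65% of all). The median was -0.03 (0.00 over all spots), with 8 spots above 0 in all 3 RNAs, 5 below in all 3 and 28 mixed. The spots spread more than in testis, with a median SD of 0.333 (0.264 over all cord spots). Of the 8 single values over 1 in size among the tested spots, 7 came from the cord of mouse 5995, which was measured on 2 arrays where each pool had 4.

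On the positive side, the smallest p belonged to Spag5, the spindle protein, with 0.32 in pool1, 0.99 in pool2 and 0.69 in mouse 5995. Odf3l1 was at 0.15, 0.29 and 0.36 in the same order, and Dnah8 at 0.76, 0.17 and 0.27 for spot 14494 and at 0.07, 0.28 and 0.29 for spot 13539. All 3 RNAs were above 0 for these spots. The spots on either side were picked for their small p, which favours a shared sign, so the sign is no further result. By dye, Dnah8 spot 13539 was at 0.450 in Cy5 and -0.0232 in Cy3. On the negative side, Dnah8 spot 13917 was at -0.34, -0.53 and -0.39, and Dnaic1 spot 17557 at -0.33, -0.20 and -0.42. Ift172 spot 13012 was at -0.16, -0.13 and -0.88, and Odf2 spot 12968 at 0.02, -0.38 and -1.51, with mouse 5995 the most negative on both. The tested spots of Dnah8 therefore had opposite signs in cord. Tekt4 was at 0.07, 0.27 and 0.13. By dye (Cy5, then Cy3), Dnaic1 spot 17557 was at 0.129 and -0.758, and Odf2 spot 12968 at -1.66 and 0.417. Tekt4 was at -0.105 and 0.425 in the same order. Dnah8 spot 13917 and Ift172 spot 13012 were below 0 in both orientations. Ift122 had values in 2 RNAs per spot only, 1.25 in pool2 and 0.82 in mouse 5995 for spot 14719, and 0.16 in pool1 and 0.63 in pool2 for spot 10080, and was not tested.

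Of the cells that could carry these transcripts in the cord, ependymal markers had a median of 0.06 over 9 spots, with 6 above 0. Macrophage and microglia markers were above 0 on 8 of 8 spots with a median of 0.62, and motor neuron markers below 0 on 4 of 4 with a median of -0.61; the part of these cells in the ratios was not tested.

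The difference between the tissues, testis ratio minus cord ratio, was called on 9 of 41 spots (22%, against 21.2% of all 17005 spots tested in both). The largest by its test was Dnah8 spot 13917, at 0.14 in testis and -0.42 in cord, a difference of 0.56 (SE 0.0916, adjusted p = 0.00280). Spag5 differed by -0.68 (adjusted p = 0.00427), with no shift in testis and 0.67 ± 0.33 in cord. Ift46, higher in testis, was at -0.22 ± 0.21 in cord, a difference of 0.45 (adjusted p = 0.00941). These 3 calls were kept on leaving out any of the 13 RNAs. Odf3l1 differed by -0.54 (adjusted p = 0.0252), below 0 in testis and above 0 in all 3 cord RNAs, and Tekt4 in the same direction by -0.31 (adjusted p = 0.0352). Dnaic1 spot 17557 (0.32), Ift172 spot 13012 (0.55), Odf2 spot 12968 (0.80) and Dnah8 spot 14494 (-0.40) completed the list, with adjusted p from 0.0211 to 0.0405.

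These calls rest on a spread shared by the tissues. The SD of the 59 spots in testis had a median of 0.149 and that of the 41 cord spots 0.333. With a separate spread for each tissue, a setting chosen after seeing the data, 0 of the 9 remained called (adjusted p from 0.151 for Spag5 to 0.393 for Tekt4). With a replicate block that joins every cord RNA to the testes of the animals in it, 0 remained too (adjusted p from 0.391 to 0.397). Over all spots the calls fell from 3604 to 8 with separate spreads and to 0 with the block. The loss is therefore not particular to these 9. Without the cord of mouse 5995, Dnaic1 was at 0.27 (adjusted p = 0.0811), Ift172 at 0.30 (0.134), Odf3l1 at -0.49 (0.0857) and Odf2 at 0.36 (0.230). Leaving out single RNAs also ended the call of Odf2 in 11 of 13 cases, of Dnah8 spot 14494 in 6 and of Tekt4 in 5.

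**Figure D5:**
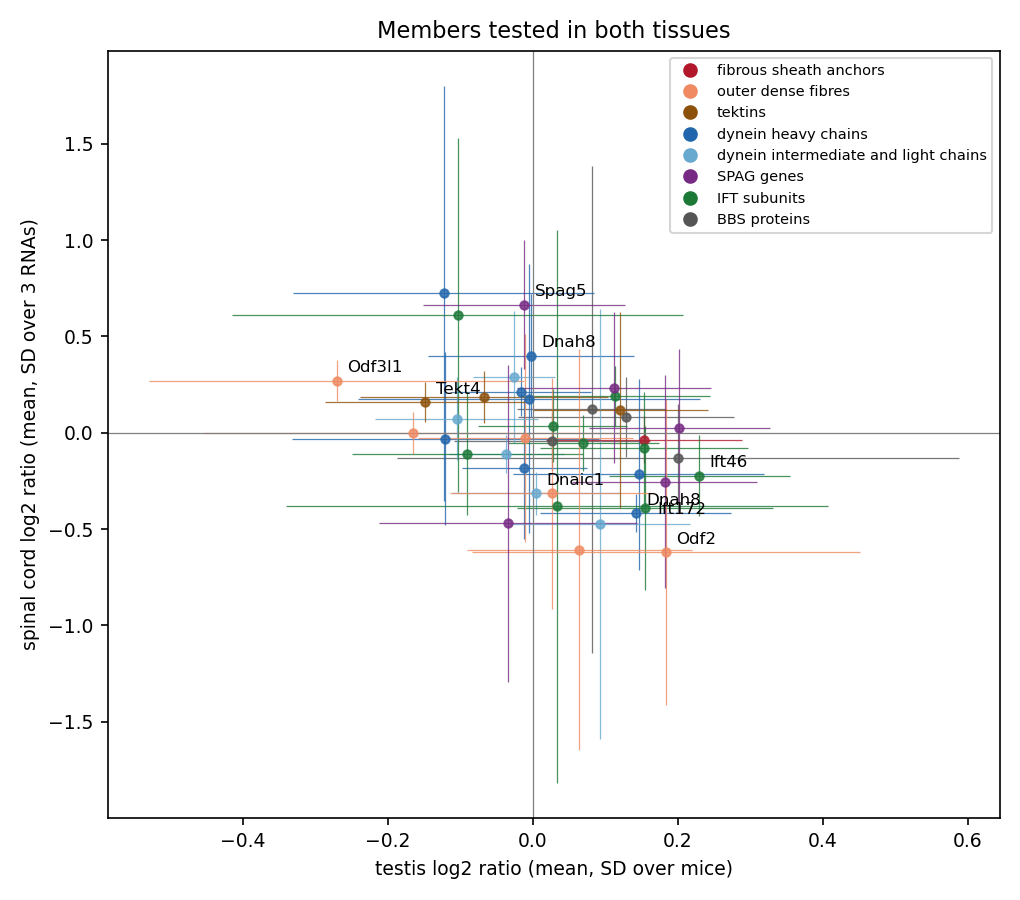
Mean log2 ratio in testis (horizontal, SD over 10 mice) against spinal cord (vertical, SD over 3 RNAs) for the 41 spots tested in both, coloured by family, with the 9 spots labelled whose tissue difference was called. Ift46 and Dnah8 spot 13917 lie to the lower right, Odf3l1 and Tekt4 to the upper left, and the median SD is 0.333 in cord and 0.149 over all testis spots.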

How the data were processed

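Each of 50 arrays has 1 log2 ratio per spot in the table deposited by the authors. Background correction, normalization and filters were not given in the sources used here. Without scanner intensities, signal over background is unknown. Between 18338 and 20189 spots had a value per array. Over all arrays, 1472 values at a floor (15.642 to 16.976 in size) were kept, 3 of them on these genes. Here each array was centred on its median, arrays were averaged within and then over dyes, and spots with both dyes in at least 8 testis mice or all 3 cord RNAs entered the test of the mean ratio against 0 (limma 3.58.1, R 4.3.3), with Benjamini-Hochberg adjustment over all spots and a threshold of 0.05. The fit was tested on simulated data. The tissue difference was fitted over 13 RNAs with a common spread. Cord RNAs and testes come from the same animals; the deviations of cord RNAs from their mean and those of their mice's testes correlated across spots at 0.00842 for mouse 5995, -0.00867 for pool1 and 0.00547 for pool2. The genes and lists were chosen with earlier results of these data known. Named are genes with a called spot, Tekt4, Ift122, the 4 cord spots of smallest p on either side of 0, family extremes and further spots of these genes; near-threshold and other members were named after their values were seen. Only bases before the start were read from promoters. The promoter table used held no entry for 6 of the 43 genes. Alternatives were array scaling and centring, single dyes, turned Cy3 arrays, arrays in a random block, value minimums, spots averaged per gene and left-out RNAs.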

Additional observations from a re-analysis of the deposited data

Results flagged for a closer look

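In testis, 6 of 59 spots had a mouse far from the other mice by Dixon's criterion, whose nominal rate is about 1 in 20, or 2.95 of 59. The rule was run on these 59 spots only, so it is not known if 6 is many for this array. Mouse 5995 was at -0.85 for Odf1 (the next mouse at -0.36) and at -5.32 for Odf2 spot 8203 (next -0.71), the latter through a value at the floor. Mouse 5905 was at 1.25 for Bbs2 (next 0.26). Mouse 5907 was at 0.40 for Dnah11 (next -0.01) and at -0.27 for Dnaic1 spot 17557 (next -0.07). Mouse 5997 was at -0.96 for Ift81 spot 14240 (next -0.13). None of these 6 spots was called in testis.

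The ratio differed between testis and cord by the test of the difference for 9 spots: Ift46 (0.45), Spag5 (-0.68), Tekt4 (-0.31), Odf2 spot 12968 (0.80), Ift172 spot 13012 (0.55), Odf3l1 (-0.54), Dnah8 spot 13917 (0.56), Dnah8 spot 14494 (-0.40) and Dnaic1 spot 17557 (0.32). None of the 9 was called with a separate spread for each tissue or with the replicate block, settings that called 8 and 0 of all spots.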

How the results depend on the processing

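Calls in testis depended on the arrays used. The main count was 7 spots (5 higher, 2 lower), beside 2494 of all spots, and the count over all spots, given as "of all", moved too. It was 13 (10 higher; 3134 of all) with arrays scaled, 13 (11 higher, median 0.093; 3406 of all) with Cy5 arrays only, 3 (1 higher; 1352 of all) with Cy3 arrays only, 4 (0 lower; 949 of all) with Cy3 arrays turned, 18 (12 higher, 6 lower; 4590 of all) with the RNA as a random block, and 4 genes (3 higher, 1 lower; 1902 of all) with spots averaged per gene. Without mice 5905, 5997 and 6065 1 was lower (2723 of all called). Leaving out 1 mouse gave 2 (without 6493; 752 of all) to 10 (without 5905; 2580 of all) called spots, 2 to 7 higher and 0 to 3 lower, with a median ratio of 0.02 to 0.04. In cord, the count was 1 with the RNA as a random block (362 of all) and 0 in the other settings, the median was 0.19 with Cy3 arrays only, and leaving out 1 RNA gave 0 called and medians from -0.03 to 0.03. The tissue difference had 9 calls (3604 of all), 18 (median -0.11; 4640 of all) with Cy3 arrays only, 0 (0 of all) with the replicate block and 0 (8 of all) with a separate spread for each tissue. Leaving out 1 RNA gave 6 to 14 calls (2843 to 4684 of all) and medians from 0.03 to 0.11.

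Among 1531 alternative values, 16 changed sign where the main or the alternative value was called. Sign changes between values that were both not called were left out of this count. The dye orientations alone had opposite signs on 26 of 59 testis spots. With Cy5 arrays only, the tissue difference of Tekt4 was 0.0169. With Cy3 arrays only, Akap3 in testis was -0.0092 and the difference of Odf2 spot 12968 was -0.22. With Cy3 arrays turned, testis values were 0.0640 for Spag9 spot 9707, 0.18 for Dnal4, 0.0505 for Odf3l1 and -0.0044 for Ift122 spot 14719, and differences were -0.17 for Ift46, 0.27 for Spag5, 0.33 for Tekt4, 0.21 for Odf3l1, -0.26 and 0.34 for Dnah8 spots 13917 and 14494, and -0.30 for Dnaic1 spot 17557. With spots averaged per gene, Spag9 spot 8764 became -0.0185 and the difference of Dnah8 spot 14494 became 0.34. The cause was not tested. Without intensities, the depth of the signal behind a spot is unknown, and 3 cord RNAs limit that tissue.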
